A study of Macaca mulatta with 10 samples.

Results

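The genes described here encode the HMGB and HMGN chromatin proteins, 7 of the 26484 rows of the count table and 7 of the 14168 genes tested. They are HMGB1, HMGB2, HMGB3, HMGN1, HMGN2, HMGN3 and HMGN4, taken by their symbols, and each passed the filter of at least 10 counts summed over the libraries. The family was selected because HMGB1 is raised in Cohort C in the study and has most of its counts in 2 libraries, so the contrast of HMGB1 between the cohorts is given as a description, with no test. The question put to the data was whether the relatives of HMGB1 had the same pattern. The RNA came from Tr1 cells, a regulatory CD4+ T cell sorted here by flow cytometry as CD4+CD49b+LAG-3+, from the blood of rhesus macaques with streptozotocin-induced diabetes and an islet allograft. Both cohorts had MHC class I-disparate donors matched for one DRB allele and a short course of the anti-CD40 antibody 2C10R4, rapamycin, soluble TNF receptor and an antibody against the IL-6 receptor. The 5 Cohort C monkeys also had infusions of apoptotic donor leukocytes (ADL) around the transplant, and the 5 Cohort B monkeys had none. Each monkey gave 1 library, made from mononuclear cells that had been frozen, thawed and rested overnight. The labels place sampling at rejection for Cohort B and at the study end point for Cohort C. The study states, however, that 15CP1, a Cohort C monkey, was not sacrificed at that point. Time after transplant, graft outcome and ADL treatment therefore cannot be told apart.

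HMGB proteins are abundant nuclear proteins that bend DNA through paired HMG boxes and help transcription factors, recombinases and repair proteins to bind. HMGB1 also leaves stressed, dying or activated cells and then acts as an alarmin on receptors such as AGER. HMGN proteins bind the nucleosome itself, loosen the packing of chromatin and compete with linker histone H1. Members of both families are abundant in lymphocytes and in dividing cells.

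The libraries differed widely in depth, with 6076 to 5895609 counts on genes and 465 to 15068 genes detected. The libraries of 13EP5 and 15CP1, both of Cohort C, held 68.1% of all counts between them. At least 5000 genes were detected in 4 libraries, those of 13EP12 and 13EP8 in Cohort B and 13EP5 and 15CP1 in Cohort C, called the well covered libraries below. CD4 had no counts in 14HP26, 14HP31, 14HP33 and 15CP4, and the sort markers were low throughout, with 68 counts of ITGA2 (CD49b) and 38 of LAG3 over the 10 libraries. Levels are given as CPM, a gene's counts divided by the library size and scaled to a common total, with library sizes scaled by trimmed mean of M-values (TMM), and 3 counts, taken as the detection limit, came to 0.621 CPM in 15CP1 and to 118 CPM in 14HP31. Intervals and limits cover counting error only.

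HMGB1, a DNA chaperone in the nucleus and an alarmin outside the cell, stood far above every other library in 13EP5 and 15CP1 and was not seen in the rest of Cohort C. In Cohort C it had 2489 counts in 13EP5, 2591 in 15CP1 and 0 in each of 14HP33, 14HP24 and 15CP4. In Cohort B it had 21 counts in 13EP12, 73 in 13EP8, 4 in 15CP6 and 0 in 14HP26 and 14HP31. In CPM these were 774 in 13EP5 and 536 in 15CP1, against 18.2, 55.7 and 8.82 in 13EP12, 13EP8 and 15CP6. The cohorts therefore overlapped, since Cohort C held both the highest values and 3 libraries at 0. The fitted log2 fold change of Cohort C over Cohort B was 3.86 (SE 2.19, n = 5 per cohort) by edgeR's quasi-likelihood fit. It was 2.75 without 13EP5, 3.43 without 15CP1 and 0.25 by limma-voom. On log2(CPM + 1) the mean was 2.68 ± 2.60 (SD, n = 5) in Cohort B and 3.73 ± 5.12 in Cohort C.

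**Figure D1:**
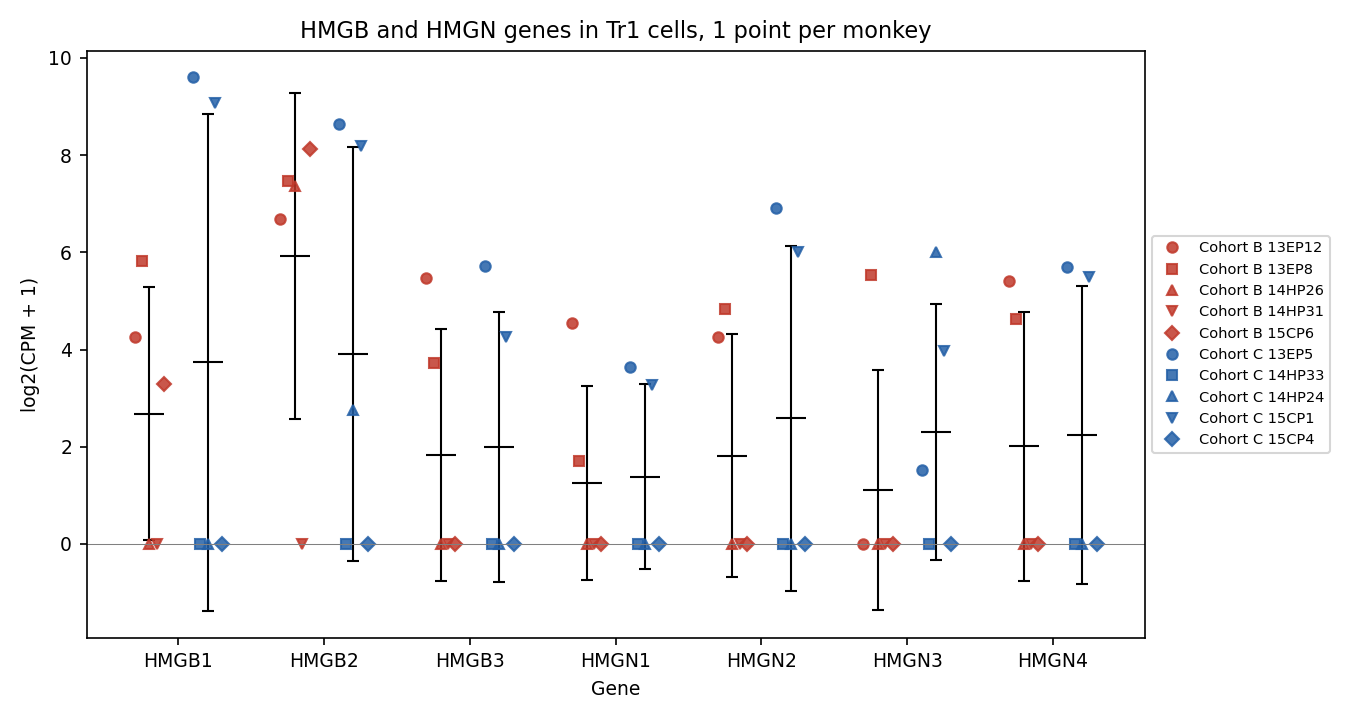
Level of each gene in each library as log2(CPM + 1), with Cohort B in red, Cohort C in blue, 1 point per monkey and the mean ± SD of 5 monkeys in black. HMGB1 lies at 9.60 and 9.07 in 13EP5 and 15CP1 and at 0 in the other 3 Cohort C libraries. For HMGB2, HMGN2 and HMGN4 these monkeys also lie above all of Cohort B, by smaller gaps. For every gene the cohorts overlap, since each cohort has libraries at 0.

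By depth alone, the 3 Cohort C libraries without HMGB1 could have shown it at the level of the other 2. Of these 3, 14HP24 and 15CP4 were shallow, with 136954 and 66485 counts, while 14HP33 had 968423 counts but 1659 genes detected and a TMM factor of 0.0727, so that its scaled size was far below its total. At the mean HMGB1 level of 13EP5 and 15CP1, 655 CPM, the TMM-scaled sizes of 14HP33, 14HP24 and 15CP4 would have given 46.1, 114 and 105 counts, and each had 0. By unscaled library totals the same level came to 573, 81.1 and 39.4 counts. Abundant housekeeping genes were unevenly seen in these 3 libraries too. EEF1A1, at 6179 and 7534 CPM in 13EP5 and 15CP1, had 0 counts in 14HP33. RPLP0, at 945 and 1098 CPM, had 0 in 15CP4 and 6 in 14HP24. ACTB had 44, 267 and 139 counts in 14HP33, 14HP24 and 15CP4. A lower level of HMGB1 and uneven sampling therefore cannot be told apart there. The detection limits of 14HP33, 14HP24 and 15CP4 were 42.6, 17.3 and 18.7 CPM. The 55.7 CPM of 13EP8 lay above all 3 limits and the 18.2 CPM of 13EP12 above that of 14HP24 alone, whereas the 8.82 CPM of 15CP6 was below all 3 and would not have been detectable there. In Cohort B, 757 counts in 13EP12 and 859 in 13EP8 would have been found at the level of 13EP5 and 15CP1, against the 21 and 73 observed.

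HMGB2, the closest relative of HMGB1 in structure and a protein of dividing cells, did not have this pattern. It had 118 counts in 13EP12, 230 in 13EP8, 28 in 14HP26, 0 in 14HP31 and 126 in 15CP6, the Cohort B libraries. In Cohort C it had 1276 counts in 13EP5, 1394 in 15CP1, 1 in 14HP24 and 0 in 14HP33 and 15CP4. In CPM the 4 Cohort B libraries with HMGB2 lay at 102, 175, 164 and 278, all below the 288 of 15CP1 and the 397 of 13EP5, and only the 278 of 15CP6 was close to them. HMGB2 was thus found in 4 of 5 Cohort B libraries and 3 of 5 Cohort C libraries, and the cohorts overlapped. Its log2 fold change was -0.06 (SE 1.94) with an adjusted p of 0.9998 by edgeR with Benjamini-Hochberg adjustment over all genes tested. The exact two-sided permutation test on log2(CPM + 1) gave p = 0.524 (n = 5 per cohort), where the smallest p it allows is 0.00794. With DESeq2 size factors the log2 fold change turned to 0.36. The means were 5.93 ± 3.35 (SD) in Cohort B and 3.91 ± 4.26 in Cohort C, so the mean of log values was lower in Cohort C by 2.01 while the fitted fold change was near 0.

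HMGB2 was also missing or nearly missing where, by depth alone, its level in the well covered Cohort C libraries would have shown it. At the mean of 13EP5 and 15CP1, 342 CPM, 24.1 counts would have come from 14HP33, 59.5 from 14HP24 and 55.0 from 15CP4, and 0, 1 and 0 were found. Each of these libraries also held few or no counts of a more abundant housekeeping gene. A lower HMGB2 level and uneven sampling cannot be told apart there. The low end of Cohort C for HMGB2 was made by the same 3 libraries as for HMGB1, while in Cohort B 14HP26, of about the scaled size of 14HP24 and 15CP4, had 28 counts and the larger 15CP6 had 126. Those 3 libraries held 12, 65 and 0 counts over the 8 CD4 T cell genes listed for the sort, whereas 13EP5 and 15CP1 held 4357 and 8149. In Cohort B, 14HP26, with its 28 counts of HMGB2, held 1 count over these genes, and 15CP6 held 332. How far the low T cell signal bears on the missing HMGB2 was not tested. Fewer cells of a type and less RNA per cell cannot be told apart in these bulk libraries.

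HMGB3, a family member linked to blood progenitors, was found in the 4 well covered libraries and in no other. It had 50 counts in 13EP12, 16 in 13EP8, 166 in 13EP5 and 88 in 15CP1, which came to 43.3, 12.2, 51.6 and 18.2 CPM. The highest Cohort B value lay between the Cohort C values. The log2 fold change was 0.28 (SE 2.05, adjusted p = 0.9998 by edgeR) and the exact permutation p was 0.841 (n = 5 per cohort).

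Among the HMGN genes, HMGN2, a nucleosome-binding protein that is widely expressed, came closest to HMGB1. It had 21 counts in 13EP12, 36 in 13EP8, 385 in 13EP5 and 306 in 15CP1 and none in the other 6 libraries. These were 18.2, 27.4, 120 and 63.3 CPM, so that both Cohort C values lay above both Cohort B values among the well covered libraries. The log2 fold change over all 10 libraries was 1.87 (SE 2.13) with an adjusted p of 0.906 by edgeR, and the exact permutation p was 0.683 (n = 5 per cohort). The difference was smaller than its own standard error.

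HMGN4, an intronless gene derived from HMGN2, also had both Cohort C values above both Cohort B values among the well covered libraries, by a smaller gap. The order of 13EP12 and 13EP8 was the reverse of that for HMGN2. It had 48 counts in 13EP12, 31 in 13EP8, 163 in 13EP5 and 214 in 15CP1, or 41.5, 23.6, 50.7 and 44.3 CPM, and none in the other 6 libraries. The fitted log2 fold change was 0.48 (SE 2.06, adjusted p = 0.9998 by edgeR) and the exact permutation p was 0.683 (n = 5 per cohort).

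HMGN1, another nucleosome-binding member, was the least counted gene of the 7, with 108 counts in all. It had 26 counts in 13EP12, 3 in 13EP8, 37 in 13EP5 and 42 in 15CP1, and its CPM of 22.5, 2.29, 11.5 and 8.69 placed both Cohort C libraries between those of Cohort B. The log2 fold change was -0.29 (SE 1.91, adjusted p = 0.9998 by edgeR). The exact permutation p was 1 (n = 5 per cohort). At its mean level in 13EP5 and 15CP1, under 3 counts would have been found in 14HP26, 14HP31, 14HP24 and 15CP4 by TMM-scaled sizes and by library totals, so 0 counts there do not bear on its level. In 14HP33 the same level came to 0.711 counts by TMM-scaled size and to 8.81 by library total, so there the answer depends on the scaling.

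HMGN3, first described as a partner of the thyroid hormone receptor, followed none of the others. It had 59 counts in 13EP8 and 0 in the other 4 Cohort B libraries, and 6 in 13EP5, 11 in 14HP24 and 71 in 15CP1. Its highest CPM were 63.3 in 14HP24 and 45.0 in 13EP8, above the 14.7 of 15CP1 and the 1.86 of 13EP5. The log2 fold change was 0.68 (SE 2.08, adjusted p = 0.9998 by edgeR) and the exact permutation p was 0.563 (n = 5 per cohort). The 11 counts in 14HP24 carried the direction, since without that library the log2 fold change was -1.06. The antisense gene HMGN3-AS1 had 10 counts in 13EP8, 6 in 13EP5 and 16 in 15CP1, and as the sources do not state whether counting used strand, its reads and those of HMGN3 cannot be told apart.

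None of the 6 relatives of HMGB1 passed unadjusted p under 0.01 with a fold of at least 1.5, the rule of the study's edgeR analysis, where 6.43% of all genes tested did. With 6 genes, 0 is not far from that background share. None of the 6 had an unadjusted p under 0.05 by edgeR, a level that 2923 of all genes reached, and no gene in the table had an adjusted p under 0.05, the smallest being 0.141. The median log2 fold change of the 6 was 0.38, with 4 above 0 and 2 below, beside a median of 0.16 over all genes tested. The deposited FPKM values, tested by limma on log2(FPKM + 1) for genes with a mean of at least 1, gave an adjusted p of 0.992 for each of the 5 relatives that passed the filter. No gene was called by limma, 29 of 10307 had an unadjusted p under 0.05, and HMGN1 was below the filter.

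The 4 well covered libraries, 2 per cohort, gave the relatives without the zeros of shallow libraries. Of all genes, 0.881% were called in this fit by the same rule, and HMGB1, with a log2 fold change of 3.998 (SE 0.65), was the only member among them, which repeats the choice of the family and supports nothing. HMGB2 had a log2 fold change of 1.16 (SE 0.53) with an unadjusted p of 0.050 and an adjusted p of 0.800 by edgeR. HMGN2 had 1.87 (SE 0.94), with an unadjusted p of 0.070 and an adjusted p of 0.800. HMGN4 was at 0.40 (SE 1.07), HMGB3 at 0.22 (SE 1.29), HMGN1 at -0.42 (SE 1.99) and HMGN3 at -1.65 (SE 2.19), none near the threshold. The direction of HMGB2 and of HMGN3 differed from the fit of all 10 libraries. The median over all genes in this fit was 0.32, and 25.4% of genes lay above HMGN2 and 32.6% above HMGB2.

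**Figure D2:**
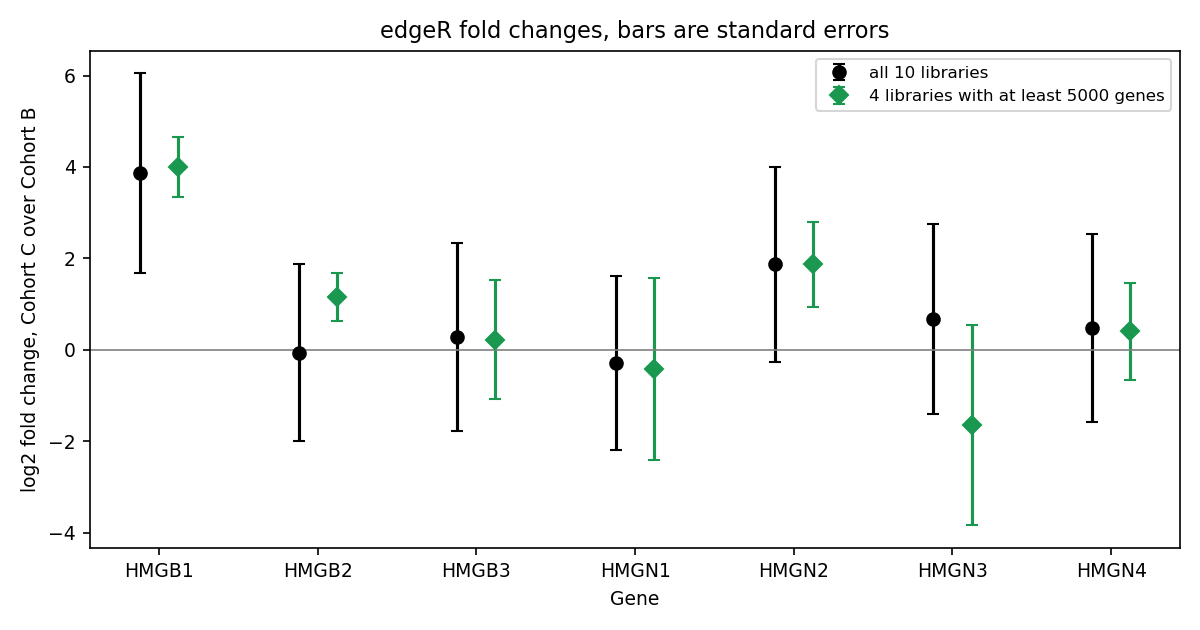
Log2 fold change of Cohort C over Cohort B for each gene by edgeR, with standard errors, over all 10 libraries (black circles) and over the 4 well covered libraries (green diamonds). HMGB1 is near 4 in both fits, HMGN2 is at 1.87 in both, HMGB2 goes from -0.06 to 1.16, and HMGN3 goes from 0.68 to -1.65.

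The share of a gene's counts that came from 13EP5 and 15CP1 was next set against that of all genes, since these 2 libraries were the deepest. HMGB1 had 98.1% of its 5178 counts there (95% Wilson interval 97.7% to 98.4%), and HMGN2 had 92.4% of 748 (90.3% to 94.1%). HMGB2 had 84.1% of 3173, HMGN4 82.7% of 456, HMGB3 79.4% of 320 and HMGN1 73.1% of 108. HMGN3 had the lowest share, 52.4% of 147. The median over all genes tested was 76.5%, so the counts of HMGB3 and HMGN1 lay near what was usual in the table, and 12.9% of genes had a share at least as high as that of HMGB1.

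Once each library was weighed alike through CPM, the shares spread out. HMGB1 kept 94.1% and HMGN2 80.0%. HMGN4 fell to 59.3%, HMGB3 to 55.7%, HMGB2 to 48.6%, HMGN1 to 44.9% and HMGN3 to 13.3%, around a median of 39.6% over all genes tested. HMGB1 and HMGN2 had the largest shares of the 7 on both scales, and HMGB2, which 4 Cohort B libraries also held, had less by CPM than HMGB3 and HMGN4. Such shares were not rare in the table. Of all genes tested, 18.6% by counts and 16.4% by CPM had a share at least as high as that of HMGN2. For HMGB1 it was 12.7% by CPM.

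**Figure D3:**
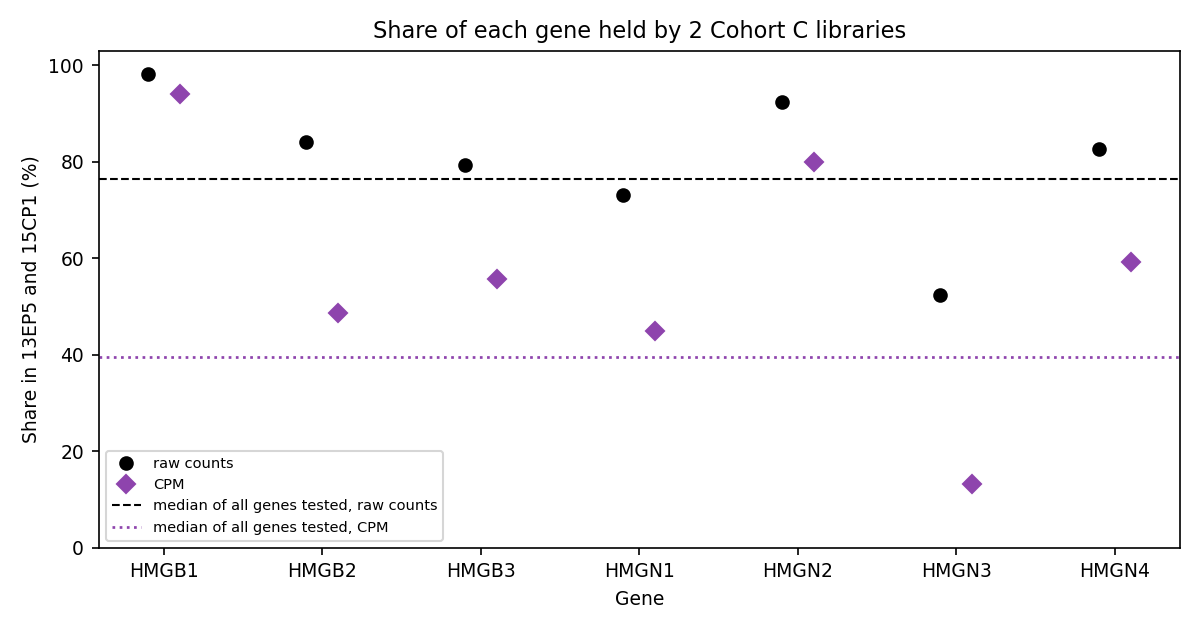
Percent of each gene's raw counts (black circles) and of its summed CPM (purple diamonds) that lay in 13EP5 and 15CP1, with the medians over all genes tested as lines at 76.5% for counts and 39.6% for CPM. HMGB1 and HMGN2 are highest on both scales, and HMGN3 is below both medians.

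Ratios between family members within a library depend on no scaling between libraries. Of the counts on HMGB1 and HMGB2 together, HMGB1 made up 66.1% in 13EP5 (95% Wilson interval 64.6% to 67.6%) and 65.0% in 15CP1 (63.5% to 66.5%). In Cohort B it made up 24.1% in 13EP8 (19.6% to 29.2%), 15.1% in 13EP12 (10.1% to 22.0%) and 3.08% in 15CP6 (1.20% to 7.64%). In 14HP26 it was 0 of 28 counts, which allows a share of up to 10.7%. HMGB1 thus outnumbered HMGB2 in both Cohort C libraries where either could be seen well, and HMGB2 outnumbered HMGB1 in all 4 Cohort B libraries with any HMGB2. The intervals of the 2 Cohort C libraries overlapped each other and none of Cohort B. As HMGB1 was chosen on its contrast, this too is a description.

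The deposited FPKM values, which account for transcript length, gave a like picture within libraries. HMGB1 was at 0.874 of the FPKM of HMGB2 in 13EP5 and at 0.833 in 15CP1. In Cohort B the same ratio was 0.171 in 13EP8, 0.0816 in 13EP12 and 0.0133 in 15CP6. Per length, then, HMGB2 stayed above HMGB1 in all 5 of these libraries, narrowly in the Cohort C pair and by far in Cohort B. The FPKM scale differed between libraries, since over 6158 genes with at least 50 counts in both, 13EP5 exceeded 15CP1 by a median of 7.63-fold in FPKM and by 0.98-fold in CPM. Levels by FPKM are therefore set side by side only within a library, and the limma test of FPKM between the cohorts given above carries this difference in scale.

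HMGB2 led the 7 genes by FPKM in each well covered library, at 2370 in 13EP5, 207 in 15CP1, 93.0 in 13EP12 and 139 in 13EP8. HMGB1 came next and HMGN2 after it in 13EP5, 15CP1 and 13EP12, while HMGN3 took the place after HMGB2 in 13EP8 with 86.1. HMGN1 was last or shared the last place with HMGN3, listed at 0 in 13EP5, 13EP12 and 13EP8 although it had counts there. Of the 70 values of the 7 genes, 5 had counts above 0 and an FPKM of 0, and none the reverse, so HMGN1 rests on the count table alone.

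HMGB1 and HMGB2, the largest parts of the family there, were alike in the Cohort C pair. HMGB1 was 55.0% of the counts on the 7 genes in 13EP5 and 55.1% in 15CP1, and HMGB2 was 28.2% and 29.6%. HMGN2 made up 8.51% (95% Wilson interval 7.74% to 9.36%) and 6.50% (5.83% to 7.24%), so it differed somewhat within the pair. Of the smaller parts, HMGB3 was at 3.67% and 1.87% and HMGN3 at 0.133% and 1.51%, and the 95% Wilson intervals of the pair did not overlap for either. Those of HMGN1 and HMGN4 overlapped. In Cohort B, HMGB2 was the largest part, with 41.5% in 13EP12, 51.3% in 13EP8 and 96.9% in 15CP6, and HMGB1 was 7.39%, 16.3% and 3.08%. The rest of 13EP12 was mostly HMGB3 at 17.6% and HMGN4 at 16.9%, and that of 13EP8 was led by HMGN3 at 13.2%.

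**Figure D4:**
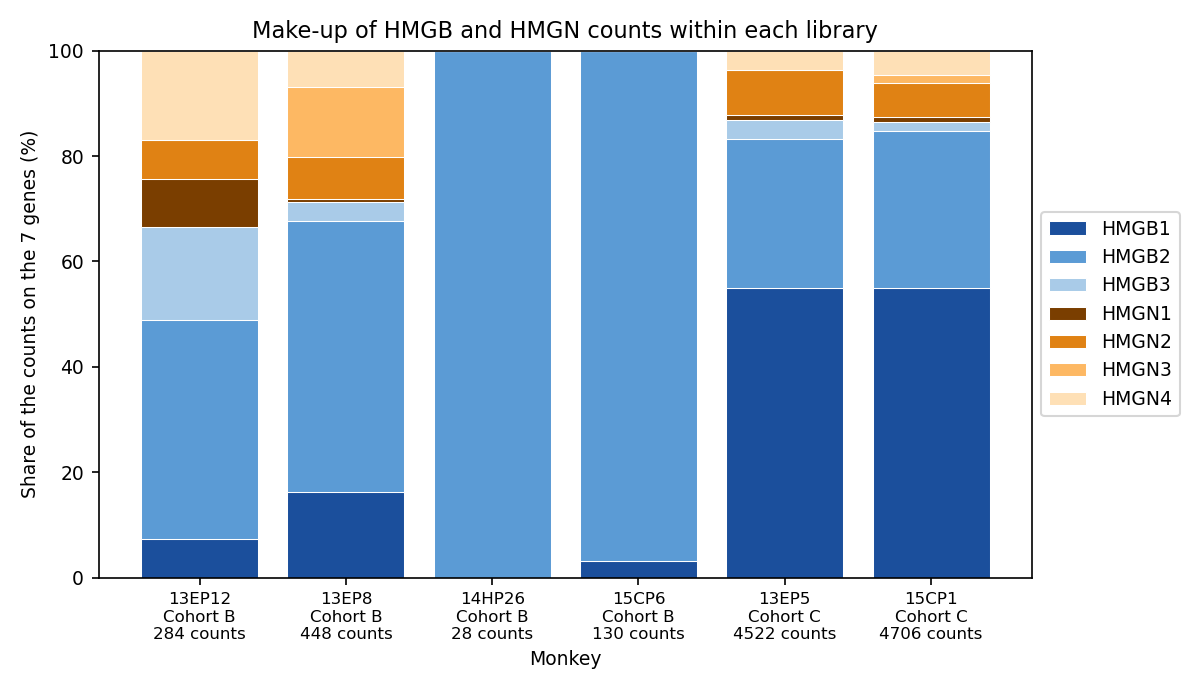
Make-up of the counts on the 7 genes in the 6 libraries with at least 28 of them, as percent of the library's family counts, with HMGB genes in blue and HMGN genes in orange and brown. HMGB1 is 55.0% and 55.1% in the Cohort C libraries of 13EP5 and 15CP1 and at most 16.3% in Cohort B, where HMGB2 is the largest part.

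Against HMGB2 as the common denominator, HMGN2 was somewhat higher in the Cohort C pair, with intervals that overlapped in part, and HMGB3 was not. HMGN2 was 23.2% of the counts on it and HMGB2 in 13EP5 (95% Wilson interval 21.2% to 25.3%) and 18.0% in 15CP1 (16.2% to 19.9%). In Cohort B it was 15.1% in 13EP12 (10.1% to 22.0%) and 13.5% in 13EP8 (9.94% to 18.2%), and the intervals of 15CP1 overlapped those of both. HMGB3 was 11.5% and 5.94% in the Cohort C pair and 29.8% and 6.50% in 13EP12 and 13EP8. In 15CP6, where HMGB2 had 126 counts, HMGB3, HMGN1, HMGN2, HMGN3 and HMGN4 had none, which allows each a share of up to 2.38%, under the 5.94% to 29.8% that HMGB3 made up in the well covered libraries.

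Of the other HMG proteins, HMGA1, which binds AT-rich DNA, had counts in 7 libraries and a log2 fold change of 0.43 (SE 2.02, adjusted p = 0.9998 by edgeR). HMGN5 had 70 counts in 13EP5, 39 in 15CP1 and 12 in 13EP8. HMGA2 had 40 of its 49 counts in 13EP8, and HMGB4, a testis gene, had none in any library. Of the 3 tested, 2 were higher and 1 lower in Cohort C, none was called, and their median log2 fold change was 0.43. Pseudogene copies of the family have 2 rows in the table, HMGB3P1 with 1 count and HMGN2P46 with 26, all in 13EP8, and the latter passed the rule as lower in Cohort C (adjusted p = 0.141 by edgeR) on that library alone. Macaque reads were aligned to the human genome, in which HMGB1 and HMGN2 have many processed copies, and how reads that match several places were counted is not given in the sources used here, so the part of such copies was not tested and the levels of these genes are uncertain to that extent.

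Genes outside the family that share the HMG box, with the histone chaperone subunit SUPT16H, were spread around 0. Of 19 tested, 13 were higher and 6 lower in Cohort C with a median log2 fold change of 0.18, and none was called. The most counted were the T cell factors LEF1 and TCF7, the chromatin remodeller subunit PBRM1 and SUPT16H, at 0.15, 0.15, -0.76 and 0.38. The linker histones, which HMGN proteins displace, were higher for 5 of 7 with a median of 1.19, and none was called. H1FX had a log2 fold change of 1.29, HIST1H1E -0.68, HIST1H1C 0.16 and HIST1H1B 3.01, with standard errors from 1.97 to 2.18. In the fit of the well covered libraries they were at 1.52, 2.33, 0.39 and 1.64, so HIST1H1E changed direction. HIST1H1E had 18 counts in the shallow library of 14HP31, which came to 710 CPM. The protein SET, with which HMGB2 shares a complex, was at 0.80, and its partners ANP32A, APEX1 and TREX1 were at 0.74, 0.76 and 4.75. The value of TREX1 (SE 1.98) rested on 48 counts, 9 in 13EP5 and 39 in 15CP1, the deepest libraries, and none elsewhere. All 5 genes of that list were above 0, none was called, and their median was 0.80.

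The receptors and partners of extracellular HMGB1 had mostly negative fitted log2 fold changes. Of 9 tested, 8 were below 0, with a median of -0.88 beside 0.16 over all genes tested. The most counted, CXCR4, TLR4 and TLR2, were at -0.88 (SE 1.98), -1.74 (SE 2.09) and -1.47 (SE 2.09), and none of these was called. In the fit of the well covered libraries they were at -0.27, -1.98 and -1.73. Passing the rule were 2 of the 9, beside 6.43% of all genes tested, and both were lower, as were 759 of the 911 genes called in all. CD24, a surface partner that restrains HMGB1 signalling, had 26 counts in 13EP12, 110 in 13EP8, 172 in 14HP26, 1 in 14HP33 and none elsewhere, with a log2 fold change of -7.32 (adjusted p = 0.141 by edgeR). CXCL12, a chemokine that forms a complex with HMGB1, had all of its 162 counts in 15CP6, so its call rested on 1 library. AGER, the receptor first described for HMGB1, had 0 counts in every library. Within the well covered libraries 8 were tested, 6 were lower, and CD24 was the only 1 called.

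Cell type and proliferation genes are given for the same libraries. The 8 CD4 T cell genes summed to 1354 CPM in 13EP5 and 1686 in 15CP1, within reach of 1561 in 13EP12 and 1321 in 13EP8. The 6 monocyte genes summed to 91.7 and 420 CPM in the Cohort C pair against 263 and 355, with CD14 present in all 4. The 5 CD8 and NK cell genes were at 18.6 and 53.0 CPM against 222 and 89.2, and the 4 platelet genes were at 151 in 13EP5 and 2.69 in 15CP1 against 22.5 and 1.52. The 4 B cell genes summed to 17.4 and 56.5 CPM against 55.4 and 76.2, and the 4 erythroid genes had no counts in these 4 libraries, with 188 counts in 15CP6, 93 in 14HP33 and 6 in 14HP26. In the other 6 libraries the sums ran from 0 to 732 CPM for CD4 T cell genes, from 0 to 276 for monocyte genes, from 0 to 58.6 for B cell genes and from 0 to 59.6 for CD8 and NK cell genes, with platelet genes at 0. None of the genes on these 6 lists was called.

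The 7 proliferation genes summed to 1503 CPM in 13EP5 and 701 in 15CP1, against 478 in 13EP12 and 554 in 13EP8, and from 0 to 625 elsewhere. MKI67, a marker of dividing cells, was at 322 and 140 CPM in the Cohort C pair and at 26.0 and 81.6 in 13EP12 and 13EP8. In 14HP26, of Cohort B, it was at 164 CPM, above 15CP1. STMN1, a microtubule regulator of dividing cells, was at 535 and 175 CPM against 121 and 143. PCNA was at 114 and 117.5 CPM against 55.4 and 22.1. TUBA1B was at 196 and 137 CPM against 142 and 83.9. The histone variant gene H2AFZ had the opposite order, with 115 and 80.5 CPM against 129 and 104. TYMS, an enzyme of nucleotide synthesis with 39 counts in all, was at 0 and 3.31 CPM against 0 and 17.5. Of the 7 genes, 4 were higher and 3 lower over all libraries, with a median log2 fold change of 0.74 and none called. In the fit of the well covered libraries 5 were higher and 2 lower. The 8 housekeeping genes were higher for 5 and lower for 3 with a median of 0.34, and none was called. The part of dividing cells or of other cell types in the HMGB1 level was not tested.

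The genes whose spread over the 10 libraries was most like that of HMGB1 were sought among 2438 genes with at least 1000 counts. The measure was the summed absolute difference between the libraries' shares of a gene's CPM, halved so that 0 is the same profile and 1 is no overlap. The nearest were NSA2 at 0.0725, MAPK6 at 0.105, RPL7 at 0.108, ERCC3 at 0.113 and AP1S2 at 0.120. NSA2 had 984 counts in 13EP5 and 818 in 15CP1, and RPL7, a ribosomal protein gene, had 834 and 1220 and none in the other 8 libraries. HMGN2, which had 748 counts and so was set beside the list rather than in it, lay at 0.147, and only those 5 genes were nearer. HMGN4 was at 0.354, HMGB3 at 0.390, HMGB2 at 0.455, HMGN1 at 0.498 and HMGN3 at 0.827, beside a median of 0.536 over the genes compared. By this measure HMGN2 was far nearer to HMGB1 than HMGB2 was.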

How the data were processed

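The authors sequenced 1 stranded total RNA library (Clontech Pico) of sorted Tr1 cells from each of 5 monkeys per cohort. Per the labels, the submitters' processing notes name FastQC, HISAT2 2.0.2, Cuffdiff 2.2.1, edgeR and the human build hg38. The tables made by the authors that were used hold raw counts per gene, of 26484 rows, and FPKM, of 26381 rows. How counting treated strand, duplicates and multiply aligned reads is not given in the sources used here. Genomic positions and sequences of the genes were not analysed here.

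Counts were normalized by TMM and tested with edgeR 4.0.16 (quasi-likelihood, R 4.3.3) on genes with at least 10 counts in all, fitting the cohort alone. A gene was called at unadjusted p under 0.01 and a fold of 1.5. CPM were counts over TMM-scaled library sizes, and log2(CPM + 1), pseudocount 1, was compared by exact two-sided permutation over 252 assignments (scipy 1.17.1, Python 3.11.15). The deposited FPKM were tested with limma 3.58.1 on log2(FPKM + 1) for genes with a mean of at least 1, with a fold of 1.4 and adjusted p under 0.05. DESeq2 1.42.0 and limma-voom were alternatives. A symbol held by several rows (2 symbols) was kept as separate rows. Scripts were tested on simulated data.

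The 7 family genes were named by rule, with up to 4 genes of a list by summed counts, others only where a result turned on them, and the 5 genes nearest to HMGB1. The genes CXCL12, AGER, CD14, ITGA2, LAG3, H2AFZ, TYMS and those of the pseudogene copies were named after their values were seen. The members and the lists were chosen with earlier results of these data known. Same-numbered libraries did not deviate together, so no block was used.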

Additional observations from a re-analysis of the deposited data

Results flagged for a closer look

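The level of HMGB2 in 14HP31, listed at 0 counts, stood apart from the other 4 Cohort B libraries, which lay between 6.69 and 8.12 on log2(CPM + 1), and the gap took up 0.823 of the range of Cohort B. In that library, which had 6076 counts in all, 8.68 counts would have been found at the mean HMGB2 level of 13EP5 and 15CP1 by TMM-scaled size and 1.88 by its total. HMGN3 in 13EP8, at 5.52 on log2(CPM + 1), was the only Cohort B value above 0, so its gap was 1 of the range. Of 14 groups examined, chance alone flags about 1 in 20 where values are normally distributed. Many of these groups were made largely of zeros, so that rate does not hold for them.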

How the results depend on the processing

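No member other than HMGB1 was called under any alternative, and the number of members called was 0 in every fit but that of the well covered libraries, where it was 1 (HMGB1). The number of all genes called, 911, was 561 with DESeq2 size factors, 341 by edgeR's exact test, 98 with the suffix of the sample descriptions as a covariate, 67 by limma-voom, 22 by DESeq2, 10 with filterByExpr, which kept 3414 genes and 1 member (HMGB2), and 117 in the well covered libraries. Leaving out 1 library gave 76 to 698 (76 without 13EP5, 143 without 15CP1, and 515 to 597 without 13EP8, 14HP26, 15CP6, 14HP33 or 14HP24). Same-numbered libraries correlated at -0.43 to 0.38 in their deviations, so the numbers do not pair them. With the number as a replicate block, 0 genes were called, HMGB1 was at 1.13 and HMGB3 at -0.056.

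The median log2 fold change of all genes was 0.16, and was -0.10 with library sizes alone and 0.34 with DESeq2 size factors. The log2 fold change of HMGB1 was 2.75 to 5.03 with 1 library left out and 0.25 by limma-voom. HMGB2 turned to 0.36 with DESeq2 size factors and 0.36 by DESeq2, to 1.16 in the well covered libraries, and ran from -0.86 to 0.55 with 1 library left out. HMGN1 turned to 0.20 by limma-voom and 0.10 with the suffix covariate, HMGN4 to -0.010 by limma-voom, and HMGN3 to -1.65 in the well covered libraries. With 1 library left out, HMGB3 ran from -1.37 to 1.85, HMGN1 from -1.19 to 2.23 (2.23 without 13EP12), HMGN3 from -1.06 to 7.40 (7.40 without 13EP8) and HMGN4 from -0.42 to 1.39. HMGN2 stayed above 0 in every edgeR, DESeq2 and limma-voom fit, from 0.55 to 2.71 with 1 library left out. The difference of mean log2(CPM + 1) ran from -3.50 to -1.04 for HMGB2, 0.27 to 2.30 for HMGN3, -0.77 to 1.07 for HMGB3, -0.44 to 0.95 for HMGN1, -0.32 to 1.52 for HMGN2 and -0.63 to 1.08 for HMGN4. The difference of log2(FPKM + 1) ran from 0.037 to 2.79 for HMGB1, -3.59 to -0.79 for HMGB2, and from -0.10 to 1.65 for HMGB3, -0.064 to 2.14 for HMGN2, -0.38 to 1.93 for HMGN3 and -0.052 to 1.80 for HMGN4, the last 4 negative only without 13EP5. By CPM in place of counts, the share in 13EP5 and 15CP1 was 94.1% for HMGB1, 48.6% for HMGB2, 55.7% for HMGB3, 44.9% for HMGN1, 80.0% for HMGN2, 13.3% for HMGN3 and 59.3% for HMGN4. The cause was not tested for these changes. Depth limits what 14HP26, 14HP31, 14HP24 and 15CP4 can show for the genes of low level.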
